A study of Mus musculus with 24 samples.

Results

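The intercalated cell acid-base genes are 10 genes of the kidney's acid-secreting and base-secreting cells, and their transcripts were followed by RNA-seq in whole mouse kidneys. They were taken by symbol from a table of read counts, in which each of the 10 symbols matched 1 of the 54532 genes. The members are the transcription factor Foxi1, the anion exchangers Slc4a1, Slc26a4 and Slc4a9, the proton pump subunits Atp6v1b1, Atp6v1g3, Atp6v0a4 and Atp6v0d2, the carbonic anhydrase Car2 and the ammonia channel Rhcg.

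All 24 mice were 18 days old, on a C57BL/6 background, and carried the RC missense allele of Pkd1, the gene for polycystin-1. In RC/+ mice, labelled control, the other Pkd1 allele was a floxed allele that had been left intact. In RC/- mice, labelled cystic, that allele was inactivated by Ksp-Cre in the tubule cells that express this Cre, so that Cre and the cystic genotype cannot be told apart. The miR-17 binding motif in the 3′ UTR of the RC allele was deleted in a pair of edited lines, each descended from a single animal: founder 3 gave D18 and founder 2 gave D53. Each of the 3 noncystic groups (RC/+, unedited, D18 or D53) held 3 mice and each of the 3 cystic groups (RC/-, unedited, D18 or D53) held 5, with 1 library made from a whole kidney of each mouse.

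Intercalated cells lie among the principal cells of the connecting tubule and collecting duct. Type A cells pump protons into the urine through an apical V-type ATPase and return bicarbonate to the blood through the basolateral exchanger encoded by Slc4a1. Type B cells work in the opposite sense, and secrete bicarbonate through the apical exchanger pendrin, encoded by Slc26a4, while Slc4a9 encodes a basolateral exchanger of the same cells. Foxi1 is a forkhead transcription factor required for intercalated cells to form.

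Libraries held 20.4 to 30.8 M counts, and the members had between 167 and 16549 counts in a library, so that none was near the detection limit in any group. Levels are given as counts scaled to the library total (CPM), and fold changes come from limma-trend on log2 CPM, with p-values adjusted by the Benjamini-Hochberg method over the 22570 genes tested and a threshold of 0.05. All 10 members passed the limit on expression. The kidneys expressed the proximal tubule markers at a summed level of 1930 CPM or more in every library. A set of 6 skeletal muscle markers summed to 146.7 to 193.9 CPM in libraries 20 to 27, which are 3 RC/- D18 and all 5 RC/- D53 kidneys, and to 5.27 to 9.36 CPM in the other 16 libraries. In bulk tissue, fewer cells of a type and less RNA per cell cannot be told apart.

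In unedited kidneys of the RC/+ group, levels per kilobase of exon (RPKM) ranked the members from Car2 at 150.9 ± 4.38 and Rhcg at 100.3 ± 5.41 to Foxi1 at 19.4 ± 1.39 and Slc4a1 at 11.6 ± 0.580 (SD, n = 3 each). The pump subunits lay between, in the order Atp6v0a4 at 76.0 ± 7.29, Atp6v1b1 at 53.3 ± 1.08, Atp6v1g3 at 42.4 ± 2.33 and Atp6v0d2 at 22.1 ± 0.451 RPKM (SD, n = 3 each). Slc26a4 stood at 31.2 ± 1.78 and Slc4a9 at 20.3 ± 0.812 RPKM.

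The first question was whether these genes differ between cystic and noncystic kidneys when the miR-17 motif is intact. Of the 10 members, 3 were higher and 4 lower in RC/- than in RC/+ kidneys, and 3 did not pass the test. Over all genes tested, 37.6% were called in this comparison, 25.5% higher and 12.2% lower. The 3 members that rose were Foxi1, Car2 and Rhcg. Those that fell were Slc4a1, Slc26a4, Atp6v0a4 and Atp6v1g3, and the same 7 members had ranges that did not overlap between the groups, against 37.6% of all genes. The median log2 fold change of the members was -0.28, and that of all genes was 0.14. Scaling by TMM brought the all-gene median to 0.01 and the share of called genes that were higher from 67.7% to 49.7%. On that scale 3 members were higher and 6 lower, because Slc4a9 and Atp6v0d2 also passed the test.

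**Figure D1:**
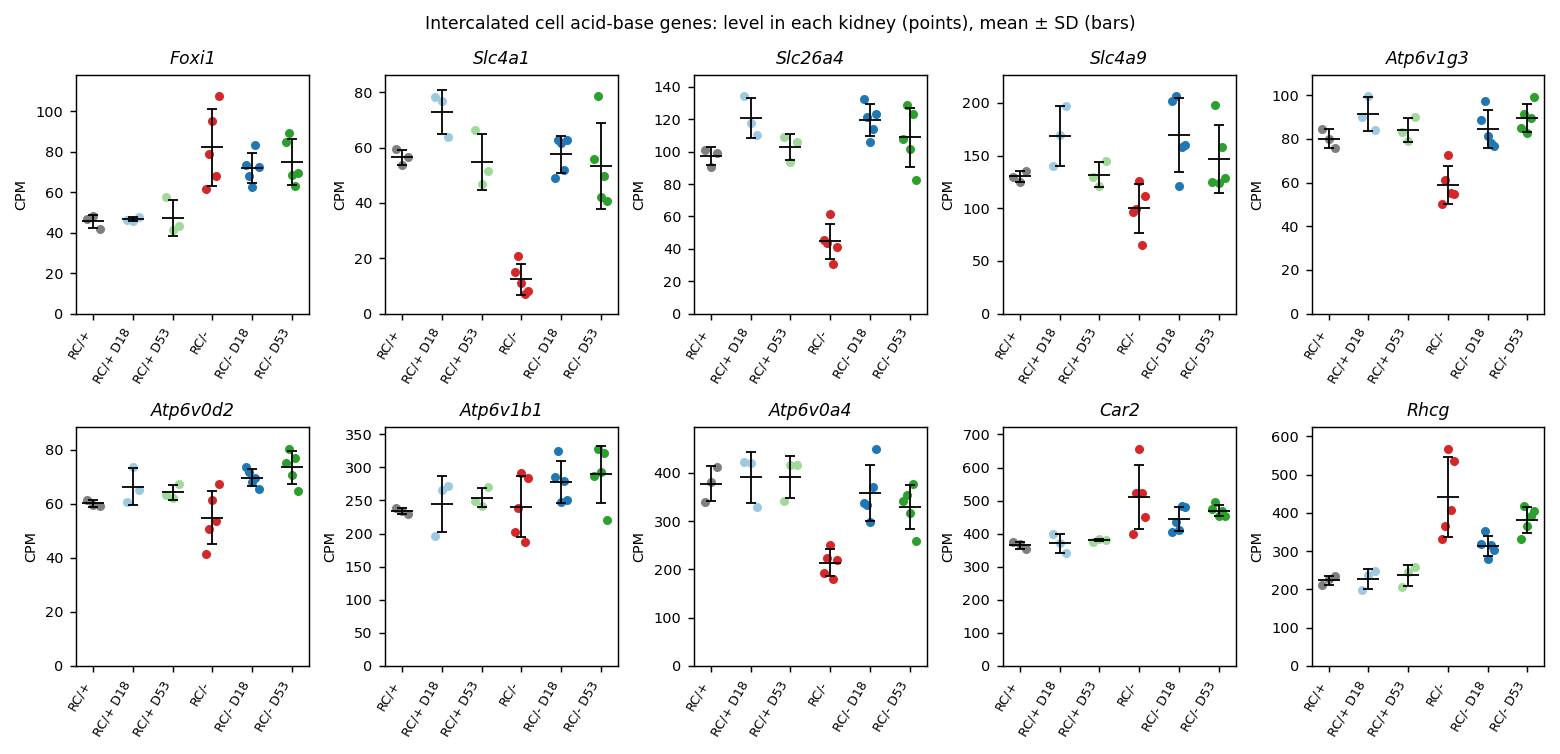
Level of each member (CPM, linear axis from 0) in each of the 24 kidneys, by group, with points for libraries and bars for the mean ± SD (n = 3 per RC/+ group and 5 per RC/- group). The RC/- points of Slc4a1, Slc26a4 and Atp6v0a4 lie below those of all 5 other groups, and the RC/- points of Foxi1, Car2 and Rhcg lie above those of RC/+.

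Foxi1 lies on chromosome 11 (34204338 to 34208089, minus strand; GRCm38). Its level was 46.6, 48.3 and 42.0 CPM in the RC/+ kidneys and 61.6, 78.9, 95.0, 67.7 and 107 CPM in the RC/- kidneys. The groups did not overlap, and Foxi1 was higher in RC/- by 0.82 ± 0.15 on the log2 scale (SE, adjusted p = 9.3e-05). Among edited cystic kidneys, the D18 mean was 71.9 ± 7.56 CPM and the D53 mean 74.9 ± 11.4 CPM (SD, 5 mice per line), and both ranges overlapped RC/-. Neither difference from RC/- passed the test, with log2 fold changes of -0.17 ± 0.13 in D18 (adjusted p = 0.318) and -0.11 ± 0.13 in D53 (adjusted p = 0.554). The 3 cystic groups thus formed the upper end of the order of levels, and the 3 noncystic groups, at 45.6 to 47.3 CPM, overlapped each other.

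Slc4a1, on chromosome 11 (102348824 to 102366203, minus strand), had the largest difference of the members between RC/- and RC/+. It was 59.3, 53.7 and 56.4 CPM in RC/+ and 14.96, 20.9, 11.1, 7.01 and 8.27 CPM in RC/-, so that the highest RC/- value was below every RC/+ value. It fell by 2.28 ± 0.24 on the log2 scale (SE, adjusted p = 7.29e-08). In RC/- D18 it was 48.9, 62.6, 61.8, 51.7 and 62.7 CPM, and in RC/- D53 it was 55.9, 78.6, 42.0, 49.8 and 40.6 CPM. All 10 edited cystic kidneys lay above all RC/- kidneys, with log2 fold changes against RC/- of 2.30 ± 0.21 in D18 (adjusted p = 7.04e-09) and 2.16 ± 0.21 in D53 (adjusted p = 6.71e-08).

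Red cells also express Slc4a1 and Car2, and the kidneys sequenced were flash frozen. The 8 erythroid markers summed to 258.4 to 474.0 CPM in RC/+ and 236.9 to 435.8 CPM in RC/-, and by limma-trend 0 of 8 differed between these groups, with 0 at an unadjusted p below 0.05 and 0 by edgeR or DESeq2. Against RC/-, 0 of 8 were called in RC/- D18 (1 at an unadjusted p below 0.05, 0 by edgeR or DESeq2) and 5 of 8 were higher in RC/- D53, Hba-a1 by 0.98 ± 0.27 and Hbb-bs by 0.95 ± 0.25 on the log2 scale. The sum in RC/- D53 ranged from 421.5 to 1282 CPM, and its part in the Slc4a1 level of that group was not tested.

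Slc26a4 (chromosome 12, 31519827 to 31559969, minus strand) was 101, 90.7 and 99.4 CPM in RC/+ and 45.6, 43.6, 61.3, 30.9 and 41.4 CPM in RC/-. It fell by 1.15 ± 0.15 on the log2 scale (SE, adjusted p = 1.11e-06). The edited cystic kidneys held 119 ± 9.89 CPM (D18) and 109 ± 18.3 CPM (D53; SD over 5 mice), both separate from RC/- and overlapping their noncystic counterparts. Against RC/- the log2 fold changes were 1.45 ± 0.13 in D18 (adjusted p = 4.57e-09) and 1.30 ± 0.13 in D53 (adjusted p = 7.55e-08).

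The second type B exchanger, Slc4a9 (chromosome 18, 36528147 to 36556273, plus strand), moved less. It was 129.8, 125.3 and 135.7 CPM in RC/+ and 96.8, 99.4, 126.2, 64.8 and 111.9 CPM in RC/-, with 1 RC/- kidney inside the RC/+ range. The log2 fold change of -0.42 ± 0.18 did not pass the test (adjusted p = 0.0764). It did pass with TMM scaling, at -0.56 (adjusted p = 0.017), and without RC/- replicate 15, at -0.51 (adjusted p = 0.0328). Against RC/-, Slc4a9 was higher in both edited groups, by 0.77 ± 0.16 in D18 (adjusted p = 0.000352) and 0.57 ± 0.16 in D53 (adjusted p = 0.00811) on the log2 scale, with overlapping ranges.

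Among the V-type ATPase subunits, those of the membrane sector (V0) and of the peripheral, ATP-splitting sector (V1) are encoded in part by genes that are enriched in intercalated cells and in part by widely expressed paralogs. Atp6v0a4, the intercalated cell form of V0 subunit a (chromosome 6, 38048483 to 38124586, minus strand), was 340.4, 380.1 and 413 CPM in RC/+ and 192, 224, 251, 180.2 and 219.8 CPM in RC/-. It fell by 0.83 ± 0.13 on the log2 scale (adjusted p = 2.02e-05). It was higher than in RC/- by 0.74 ± 0.11 in RC/- D18 (adjusted p = 1.1e-05) and by 0.63 ± 0.11 in RC/- D53 (adjusted p = 0.000162), without overlap in either. Of its exon bases 6.45% overlap D630045J12Rik on the same strand and Tmem213 on the other, so its counts are less certain than those of the other members, which share no exon bases.

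Atp6v1g3, a V1 subunit G (chromosome 1, 138273738 to 138289462, plus strand), was 84.4, 80.1 and 75.7 CPM in RC/+ and 50.1, 60.9, 72.8, 55.3 and 54.7 CPM in RC/-. The ranges were separate, and it fell by 0.46 ± 0.098 on the log2 scale (SE, adjusted p = 0.000659). In the edited cystic groups it was higher than in RC/-, by 0.53 ± 0.085 in D18 (adjusted p = 2.12e-05) and by 0.61 ± 0.085 in D53 (adjusted p = 6.28e-06).

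Atp6v0d2, a V0 subunit d (chromosome 4, 19876841 to 19922605, minus strand), averaged 60.1 ± 1.22 CPM in RC/+ (SD, n = 3) and 54.8 ± 9.85 CPM in RC/- (SD, n = 5). Its difference of -0.15 ± 0.11 did not pass the test (adjusted p = 0.275), but did with TMM scaling, at -0.29 (adjusted p = 0.0335). It was higher than in RC/- by 0.36 ± 0.091 in RC/- D18 (adjusted p = 0.00234) and by 0.44 ± 0.091 in RC/- D53 (adjusted p = 0.000641). Macrophages can also express Atp6v0d2. Of the 10 macrophage markers 9 were higher in RC/- than in RC/+, and they summed to 276.4 to 293.7 CPM in RC/+ and 559.2 to 1008 CPM in RC/-. Against RC/-, 8 of 10 were lower in each edited cystic group, Lyz2 by 1.94 ± 0.13 in D18 and by 1.504 ± 0.13 in D53 on the log2 scale. The part of these cells in the Atp6v0d2 level was not tested.

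Atp6v1b1, the V1 subunit B enriched in intercalated cells (chromosome 6, 83742990 to 83758855, plus strand), did not pass the test in RC/- against RC/+. It was 238.4, 233.5 and 229 CPM in RC/+ and 202.7, 238.1, 290.8, 187.8 and 284.1 CPM in RC/-, a log2 difference of 0.02 ± 0.14 (adjusted p = 0.925) whose sign turned with TMM scaling, to -0.12. Against RC/- the differences of 0.22 ± 0.12 in D18 (adjusted p = 0.149) and 0.28 ± 0.12 in D53 (adjusted p = 0.0875) did not pass, but did with TMM scaling, at 0.34 (adjusted p = 0.0207) and 0.36 (adjusted p = 0.0182).

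Car2, the cytosolic carbonic anhydrase that supplies protons and bicarbonate (chromosome 3, 14886273 to 14900770, plus strand), was 374.7, 367.7 and 353.9 CPM in RC/+ and 399.1, 524.4, 657.3, 521.6 and 450.5 CPM in RC/-. It rose by 0.46 ± 0.10 on the log2 scale (adjusted p = 0.000851). Rhcg, an ammonia channel of distal tubule and collecting duct cells (chromosome 7, 79593363 to 79617657, minus strand), was 210.7, 226.7 and 234.4 CPM in RC/+ and 331, 366.4, 567.9, 406.9 and 534.2 CPM in RC/-. The groups did not overlap for either gene, and Rhcg rose by 0.95 ± 0.13 (adjusted p = 4.08e-06).

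In the edited cystic groups Car2 stood at 444 ± 36.8 CPM (D18) and 469.7 ± 17.6 CPM (D53), and its differences from RC/- of -0.19 ± 0.089 (adjusted p = 0.0972) and -0.10 ± 0.089 (adjusted p = 0.437) did not pass the test. Rhcg was lower than in RC/- in D18, by -0.46 ± 0.12 (adjusted p = 0.00219). In D53 its difference of -0.18 ± 0.12 did not pass (adjusted p = 0.263), and when libraries 20 to 27 were left out the D18 difference of -0.36 did not either (adjusted p = 0.122).

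Both genes are also expressed outside intercalated cells, and the principal cell markers moved in the same direction. Of these 8 markers 6 were higher in RC/- than in RC/+, among them the cortisol-inactivating enzyme Hsd11b2 (log2 fold change 1.98 ± 0.15), Fxyd4 (1.87 ± 0.14) and the sodium channel subunits Scnn1b (1.59 ± 0.14) and Scnn1g (1.58 ± 0.12). They summed to 1172 to 1453 CPM in RC/+ and 2555 to 4929 CPM in RC/-. Against RC/-, 7 of 8 were lower in RC/- D18 and 4 of 8 in RC/- D53. Their part in the Car2 and Rhcg levels was not tested.

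Across all 6 groups the members fell into 3 orders of level. RC/- was the lowest group, and separate from the next, for Slc4a1, Slc26a4, Atp6v1g3 and Atp6v0a4. For Foxi1, Car2 and Rhcg the 3 cystic groups lay highest, with RC/- first, and their lowest group, RC/- D18, was separate from the highest noncystic group. Neighbouring groups overlapped throughout for Slc4a9 and Atp6v1b1, and for Atp6v0d2 the RC/- group was lowest but overlapped RC/+. The highest Slc4a1 level was that of RC/+ D18, at 72.9 ± 7.98 CPM (SD, n = 3), separate from RC/- D18.

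Promoters are shown for 4 members that differ in direction, the riser Foxi1, Slc26a4 and Atp6v0a4, which fell, and Atp6v1b1, which did not pass the test. They are from RefSeq (GRCm38.p6) and read 5′ to 3′ on the gene's strand. Each runs from 250 bases before to 50 bases after the RefSeq start. For Slc26a4 and Atp6v1b1 that start differs from the gene start given above. Entries were matched for 6 of the 10 members. Capitals mark the forkhead core TGTTTA, searched on both strands with its reverse complement TAAACA.
Foxi1, chr11:34208040-34208339, minus strand: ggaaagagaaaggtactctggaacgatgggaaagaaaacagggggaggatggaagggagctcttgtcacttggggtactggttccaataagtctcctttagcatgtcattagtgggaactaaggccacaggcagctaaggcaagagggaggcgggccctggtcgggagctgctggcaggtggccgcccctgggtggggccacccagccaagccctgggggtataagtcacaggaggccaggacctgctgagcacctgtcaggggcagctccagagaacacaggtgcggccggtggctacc
Slc26a4, chr12:31559935-31560234, minus strand: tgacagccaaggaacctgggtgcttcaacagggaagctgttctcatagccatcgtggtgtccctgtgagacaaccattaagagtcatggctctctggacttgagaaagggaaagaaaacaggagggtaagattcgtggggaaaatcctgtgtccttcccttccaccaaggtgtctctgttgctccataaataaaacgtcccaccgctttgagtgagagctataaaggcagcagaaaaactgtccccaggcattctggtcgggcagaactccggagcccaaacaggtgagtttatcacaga
Atp6v0a4, chr6:38124537-38124836, minus strand: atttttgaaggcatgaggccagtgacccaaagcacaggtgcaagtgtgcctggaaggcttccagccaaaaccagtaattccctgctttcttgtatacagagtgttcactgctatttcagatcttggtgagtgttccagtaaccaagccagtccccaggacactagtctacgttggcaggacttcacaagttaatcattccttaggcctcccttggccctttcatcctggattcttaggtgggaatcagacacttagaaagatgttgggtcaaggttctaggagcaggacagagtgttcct
Atp6v1b1, chr6:83742767-83743066, plus strand: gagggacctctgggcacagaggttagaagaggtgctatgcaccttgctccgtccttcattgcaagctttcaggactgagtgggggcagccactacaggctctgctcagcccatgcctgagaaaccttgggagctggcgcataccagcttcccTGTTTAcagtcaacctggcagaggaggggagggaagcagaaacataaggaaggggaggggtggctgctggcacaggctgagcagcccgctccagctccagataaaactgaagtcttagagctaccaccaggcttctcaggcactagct
The core was present in 1 of the 6 member promoters, that of Atp6v1b1, and in 13.4% of the 32851 promoters of the same length.

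The second question was how the members differ between edited and unedited cystic kidneys. In RC/- D18 against RC/-, 6 members were higher, 1 was lower and 3 did not pass the test, against 41.2% of all genes called, 14.3% higher and 26.9% lower. In RC/- D53 against RC/-, 6 were higher and 0 lower, against 30.2% called, 11.3% higher and 18.9% lower. The 6 members were Slc4a1, Slc26a4, Slc4a9, Atp6v1g3, Atp6v0d2 and Atp6v0a4 in each, and the median log2 fold change of the 10 members was 0.45 in D18 and 0.50 in D53, against -0.10 and -0.08 over all genes. With TMM scaling both all-gene medians were 0.00, and the share of called genes that were higher went from 34.8% to 50.2% in D18 and from 37.4% to 53.3% in D53. Both comparisons use the same 5 RC/- libraries, which are also those compared with RC/+. In each line 4 members lay wholly above RC/-, as did 9.01% of all genes for D18 and 6.98% for D53. When libraries 20 to 27 were left out, which leaves 2 RC/- D18 mice, the same 6 members were higher. The RC/- D53 group lies wholly within those libraries and could not be run without them. With libraries 20 to 27 as a covariate, Atp6v0a4 did not pass in D53, at 0.49 (adjusted p = 0.143).

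Between the edited cystic groups, limma-trend called 0 of 10 members, with 1 at an unadjusted p below 0.05 and 0 by edgeR or DESeq2, against 0.266% of all genes. In noncystic kidneys the deletion gave 0 of 10 in each line, with 0 at an unadjusted p below 0.05 and 0 by edgeR or DESeq2. Of all genes, 0.00443% were called in RC/+ D18 against RC/+ and 0.00% in RC/+ D53 against RC/+. The log2 fold changes of the members were 0.02 to 0.36 in D18 and -0.06 to 0.12 in D53. Every RC/+ D18 kidney lay above every RC/+ kidney for Slc4a1, Slc26a4 and Slc4a9. The same held in RC/+ D53 for Atp6v0d2, Atp6v1b1 and Car2, and no member lay wholly below RC/+ in either line. The share of all genes with such an order is not given here.

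The third question was whether a difference between cystic and noncystic kidneys remained within each edited line. In RC/- D18 against RC/+ D18, limma-trend called 0 of 10 members (3 at an unadjusted p below 0.05, 0 by edgeR and 1 by DESeq2), against 0.266% of all genes. The 3 were Foxi1, at 0.62 ± 0.15 (adjusted p = 0.0858), Rhcg, at 0.47 ± 0.13 (adjusted p = 0.191), and Car2, at 0.26 ± 0.10 (adjusted p = 0.422), each with every RC/- D18 kidney above every RC/+ D18 kidney, as for 3.85% of all genes. In RC/- D53 against RC/+ D53, 2 members were higher, against 2.45% of all genes higher and 2.60% called. They were Foxi1, at 0.67 ± 0.15 (adjusted p = 0.0103), and Rhcg, at 0.69 ± 0.13 (adjusted p = 0.00299). Car2, at 0.30 ± 0.10, did not pass (adjusted p = 0.134), but did with only the groups compared (adjusted p = 0.018). Foxi1 was called neither without RC/+ D53 replicate 11, at 0.57 (adjusted p = 0.105), nor without replicate 12, at 0.61 (adjusted p = 0.0829). It was not called with libraries 20 to 27 as a covariate either, at 0.63 (adjusted p = 0.187).

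Within the edited lines, no difference of the 3 exchangers passed the test. Slc4a1 gave -0.34 ± 0.24 in D18 (adjusted p = 0.762) and -0.07 ± 0.24 in D53 (adjusted p = 0.954). Slc26a4 gave -0.01 ± 0.15 in D18 and 0.07 ± 0.15 in D53, and Slc4a9 gave -0.01 ± 0.18 and 0.13 ± 0.18. The 5 RC/- D18 kidneys still lay below the 3 RC/+ D18 kidneys for Slc4a1, at 48.9 to 62.7 CPM against 63.7 to 78.1 CPM, an order that 1.91% of all genes had.

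**Figure D2:**
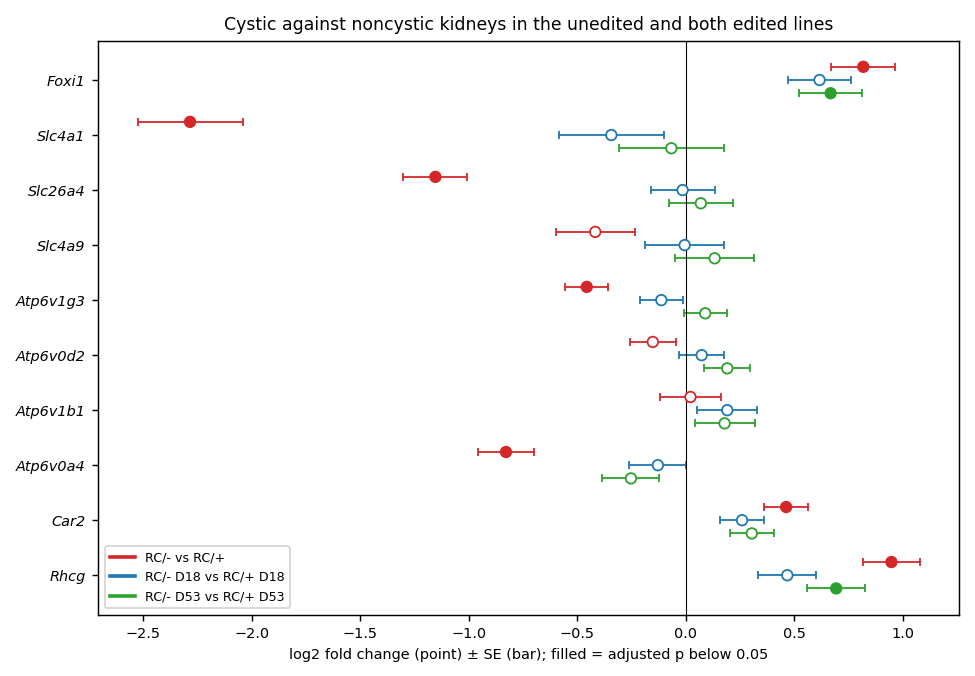
Log2 fold change (points) ± SE (bars) of each member in RC/- against RC/+ kidneys, for unedited mice and the D18 and D53 lines, with filled points for an adjusted p below 0.05. The unedited kidneys span -2.28 for Slc4a1 to 0.95 for Rhcg, while within the edited lines Foxi1, Car2 and Rhcg lie to the right of 0 and the 3 exchangers between -0.34 and 0.13.

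Whether the cystic difference differed between each edited line and the unedited kidneys was tested by interaction terms, which share the RC/- and RC/+ libraries. In D18, 3 of 10 members had a difference above that of the unedited kidneys, against 17.1% of all genes called and 6.31% above. These were Slc4a1 (1.94 ± 0.34, adjusted p = 0.000357), Slc26a4 (1.14 ± 0.21, adjusted p = 0.000505) and Atp6v0a4 (0.70 ± 0.19, adjusted p = 0.0105). In D53, 4 of 10 did, against 11.3% called and 4.73% above, namely Slc4a1 (2.22 ± 0.34, adjusted p = 0.000299), Slc26a4 (1.22 ± 0.21, adjusted p = 0.000663), Atp6v1g3 (0.55 ± 0.14, adjusted p = 0.0123) and Atp6v0a4 (0.58 ± 0.19, adjusted p = 0.0453). The Atp6v0a4 interaction in D53 did not pass when any of 12 of the 16 libraries was left out (RC/+ replicates 5 and 6, RC/+ D53 replicates 10 to 12, RC/- replicates 13, 16 and 17, RC/- D53 replicates 23 to 26; adjusted p = 0.0515 to 0.138), and in D18 it did not pass without RC/+ D18 replicate 9, at 0.58 (adjusted p = 0.0509). Atp6v1g3 did not pass in D18, at 0.34 ± 0.14 (adjusted p = 0.094), but did with TMM scaling, at 0.44 (adjusted p = 0.0363). It also passed there by edgeR (adjusted p = 0.0459) and DESeq2 (adjusted p = 0.034). Slc4a9 did not pass in either line, at 0.41 ± 0.26 in D18 (adjusted p = 0.309) and 0.55 ± 0.26 in D53 (adjusted p = 0.181). For Foxi1 the interactions were -0.20 ± 0.21 in D18 (adjusted p = 0.57) and -0.15 ± 0.21 in D53 (adjusted p = 0.709), and for Rhcg -0.48 ± 0.19 (adjusted p = 0.0827) and -0.25 ± 0.19 (adjusted p = 0.432). A smaller cystic difference of Foxi1 in the edited lines was therefore not shown.

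Ratios of gene pairs within a library do not depend on how libraries are scaled, and 6 were fixed for 3 comparisons, giving 18 tests by a two-sided exact permutation test. The smallest p this test allows is 0.0357 for 3 against 5 mice and 0.00794 for 5 against 5. Of the 6 ratios, 5 differed between RC/- and RC/+, each at an adjusted p of 0.0429 (exact permutation test).

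The widely expressed partner of Atp6v0a4, Atp6v0a1, rose in RC/-, by 0.38 ± 0.068 on the log2 scale (adjusted p = 0.000103), from 49.98 ± 0.810 CPM in RC/+ to 65.0 ± 3.45 CPM. The ratio of Atp6v0a4 to Atp6v0a1 counts was 6.73, 7.55 and 8.41 in RC/+, and had a lowest, median and highest value of 2.84, 3.27 and 3.69 in RC/-, a log2 difference of -1.21. It was 6.37 to 8.92 in RC/- D18 and 5.67 to 7.32 in RC/- D53, and both lay above RC/- (log2 difference 1.15 and 1.01, adjusted p = 0.0238 each by the exact permutation test).

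The other subunit pairs moved less. Atp6v0d1, the partner of Atp6v0d2, rose in RC/- by 0.21 ± 0.063 (adjusted p = 0.0101), and the log2 ratio of Atp6v0d2 to it was lower by -0.36. Atp6v1b2 fell by 0.51 ± 0.083 (adjusted p = 2.99e-05) while Atp6v1b1 did not pass the test, and their log2 ratio was higher by 0.53. Atp6v1g1 fell by 0.32 ± 0.059 (adjusted p = 0.000138), and the Atp6v1g3 ratio to it differed by -0.14, which did not pass (adjusted p = 0.265, exact permutation test). The ratio of Atp6v1b1 to Atp6v1b2 was the only 1 of the 6 that did not differ in either edited cystic group against RC/-, at -0.21 in D18 (adjusted p = 0.241) and -0.08 in D53 (adjusted p = 0.508, exact permutation tests).

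The ratio of Slc26a4 to Slc4a1 counts was 1.69, 1.70 and 1.76 in RC/+ and 2.08, 4.40 and 5.50 at the lowest, median and highest in RC/-. That of Slc4a9 to Slc4a1 was 2.19, 2.34 and 2.40 in RC/+ and 4.74, 9.22 and 13.5 in RC/-. Both exchangers of type B cells were thus higher relative to Slc4a1 in RC/-, by 1.14 and 1.87 on the log2 scale. Against RC/- the ratios were lower in D18, by -0.86 and -1.54, and in D53, by -0.86 and -1.60 (adjusted p = 0.0429 for Slc26a4 and 0.0238 for Slc4a9 in each, exact permutation tests).

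**Figure D3:**
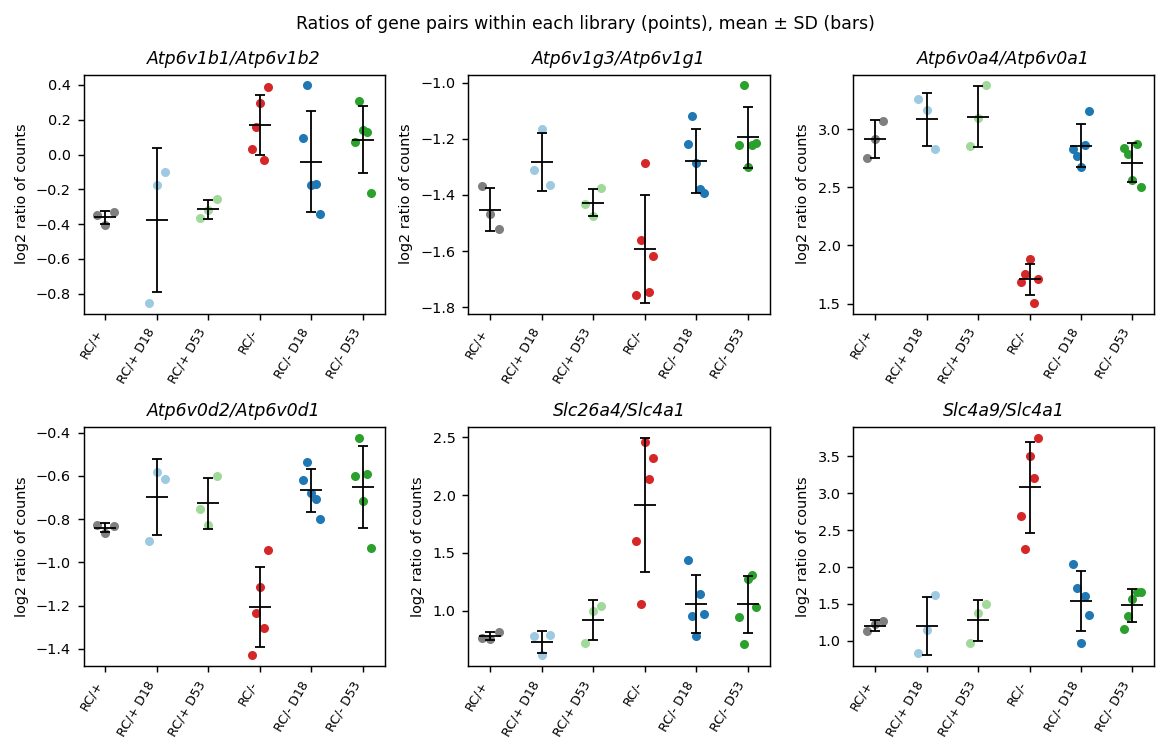
Log2 ratio of counts of 6 gene pairs within each library, by group, with points for libraries and bars for the mean ± SD (n = 3 per RC/+ group and 5 per RC/- group). The RC/- points of Atp6v0a4/Atp6v0a1 lie below all other groups, with a mean of 1.71 against 2.91 in RC/+.

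Other genes of intercalated cells gave counts in both directions, 4 higher, 9 lower and 5 not called of 18 in RC/- against RC/+, with a median log2 fold change of -0.36. The largest changes were in Oxgr1, a receptor for alpha-ketoglutarate (-1.73 ± 0.15, adjusted p = 3.52e-09), the anion exchanger Slc26a7 (-1.38 ± 0.19, adjusted p = 2.39e-06), Dmrt2, a transcription factor (1.36 ± 0.18, adjusted p = 1.5e-06), and Rhbg, a basolateral ammonia transporter (-0.96 ± 0.14, adjusted p = 4.6e-06). Rhbg shares 61.4% of its exon bases with Gm38392, so its counts are uncertain. Oxgr1 was 77.3 ± 12.5 CPM in RC/+ (SD, n = 3) and 23.6 ± 5.15 CPM in RC/- (SD, n = 5), and Dmrt2 was 10.4 ± 2.54 and 27.3 ± 7.42 CPM. Against RC/-, 12 were higher and 4 lower in RC/- D18, and 11 were higher and 2 lower in RC/- D53. Oxgr1 was higher by 1.63 ± 0.13 in D18 and 1.49 ± 0.13 in D53, and Dmrt2 was lower by -0.96 ± 0.15 and -0.61 ± 0.15.

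The other proton pump subunits, 18 widely expressed genes, split into 4 higher, 8 lower and 6 not called in RC/- against RC/+. Atp6v0e2 (-0.52 ± 0.11) and Atp6v1a, the catalytic subunit (-0.50 ± 0.076), fell, and Tcirg1, the V0 subunit a of osteoclasts and immune cells, rose (0.49 ± 0.14). Against RC/- they gave 9 higher and 5 lower in D18, and 7 higher and 2 lower in D53.

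Acid-base genes of the proximal tubule formed a separate list of 8, of which 7 fell and 1 rose in RC/- against RC/+. The membrane carbonic anhydrase Car14 (-1.71 ± 0.22), Pck1, an enzyme of gluconeogenesis and ammonia production (-1.70 ± 0.30), the sodium-proton exchanger Slc9a3 (-1.49 ± 0.27) and the bicarbonate cotransporter Slc4a4 (-1.17 ± 0.13) had the largest changes. Against RC/-, 7 were higher and 1 lower in D18, and 6 higher and 1 lower in D53. Proximal tubule markers moved with them, with 8 of 8 lower in RC/- against RC/+ and 8 of 8 higher in each edited cystic group against RC/-. Their sum was 8172 to 8961 CPM in RC/+ and 1930 to 4562 CPM in RC/-. The loop and distal tubule markers gave 1 higher and 5 lower of 6 in RC/-.

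The genes that set intercalated against principal cell fate were 6 higher and 0 lower of 8 in RC/- against RC/+; edgeR and DESeq2 also called 6. These were led by Gata3, a transcription factor of the collecting duct (2.02 ± 0.12, adjusted p = 8.01e-12), and Elf5, a transcription factor of principal cells (1.85 ± 0.24, adjusted p = 1.19e-06), followed by Notch2 (0.72 ± 0.099) and the Notch target Hes1 (0.44 ± 0.089). Gata3 was 26.1 ± 6.32 CPM in RC/+ (SD, n = 3) and 104.5 ± 7.63 CPM in RC/- (SD, n = 5). Against RC/-, 5 of 8 were lower in each edited cystic group by limma-trend, where edgeR called 3 in each and DESeq2 called 4 in D18 and 3 in D53. Gata3 was lower by -1.50 ± 0.10 in D18 and -1.03 ± 0.10 in D53.

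**Figure D4:**
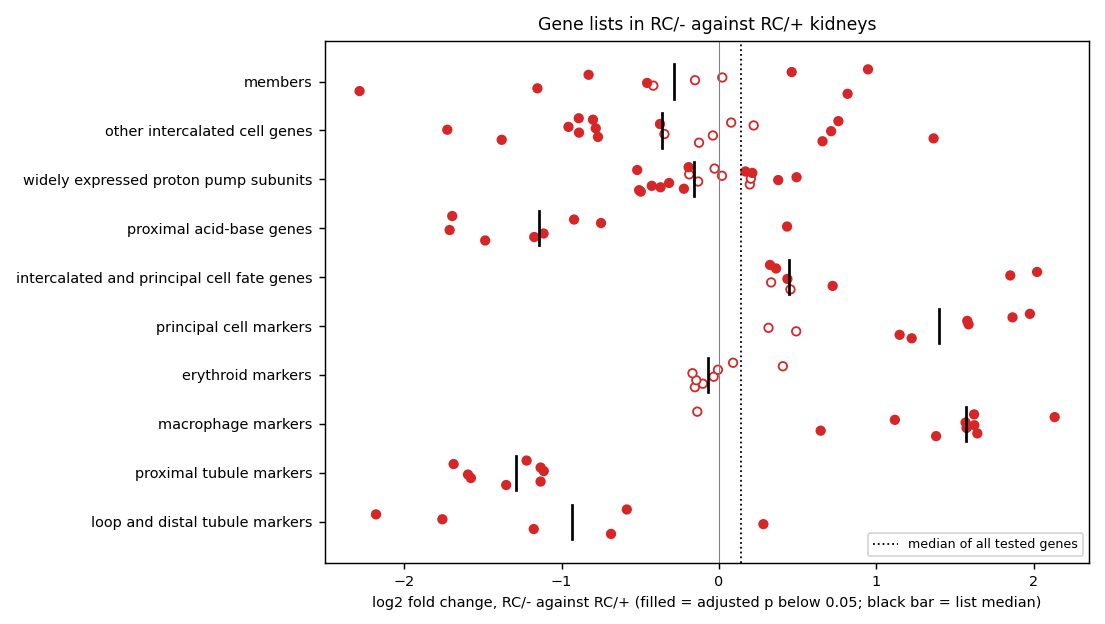
Log2 fold change in RC/- against RC/+ kidneys of the genes of 10 lists (points, filled for an adjusted p below 0.05), with a black bar at the list median and a dotted line at the median of all tested genes (0.14). The members spread from -2.28 to 0.95 on both sides of 0, unlike the proximal tubule markers, of which 8 of 8 lie below 0.

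After the group means were removed, the 10 members still varied together over the 24 libraries in part. Of their 45 pairs, 43 had a Pearson correlation above 0, with a median of 0.36, a highest value of 0.79 for Slc4a9 with Atp6v1b1 and a lowest of -0.40 for Slc4a1 with Rhcg. These are descriptions over libraries that share depth and composition. The share of pairs above 0 among other genes is not given here, so the count is not read as particular to the members. Among 22569 other genes, those most like Foxi1 by this measure were Akr1c19 (0.82), Neil2 (0.82), Sox6 (0.79), Trpv6 (0.77) and Uap1l1 (0.77). With the group means kept, their correlations with Foxi1 were -0.02, 0.37, 0.91, 0.79 and -0.13, in the same order. With the group means removed, Atp6v0d2 was the member nearest to Foxi1, at 0.62 (rank 94), and Slc4a1 the farthest, at 0.08 (rank 8051). The principal cell markers ranged from -0.32 for Aqp4 to 0.70 for Scnn1b, which was nearer to Foxi1 than any other member was. The median correlation of Foxi1 with all tested genes was -0.02.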

How the data were processed

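RNA-seq counts of 24 whole kidneys, with 1 library per mouse, were analysed by genotype label. According to the study's methods, the authors trimmed paired reads with Trim Galore 0.6.3, aligned them to GRCm38 with STAR 2.5.3a and counted reads per gene on Ensembl release 94 models. The deposited table holds these raw counts as whole numbers, without normalization, and 0 columns were left unused. Which strand column was kept is not given in the sources used here. Rows without a symbol took at most 0.0261% of a library. Coordinates are from GENCODE M21 (GRCm38).

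Counts were scaled to the library total, and genes whose log2 CPM averaged -3 or more were tested (22570 genes). The test was limma-trend (limma 3.58.1, R 4.3.3) on log2 CPM with a prior count of 2 (edgeR 4.0.16), with a mean per group over all 24 libraries. Adjusted p-values in the text are from this fit unless another test is named. Its fold changes understate those of low genes. On simulated counts for RC/- against RC/+ (22485 genes), it recovered 63% of 100 genes changed by 1 and 30% of 100 genes changed by 0.5 on the log2 scale, with 5 false calls. The changed genes were drawn at random over all levels of expression, and far fewer changed than were called in the data. These shares are therefore not the sensitivity for the members. Ratios used log2 of counts plus 0.5 and exact permutation tests. Alternatives were TMM and DESeq2 1.42.0 size factors, edgeR quasi-likelihood and DESeq2 Wald tests, no expression limit, a prior count of 0.5, only the groups compared, sex (14 female and 10 male libraries, read from Xist and Ddx3y) and libraries 20 to 27 as covariates, each library left out, and, chosen after the data were seen, all of libraries 20 to 27 left out. Within groups, counts of the 39 pairs of libraries differed by more than sampling noise (chi-square per degree of freedom of 8.45 to 48.2).

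The members and the gene lists were chosen with earlier results of these data known. All members are named, with up to 4 genes of each list per comparison that passed the test with the largest fold change, the partner subunits, and the 5 genes most like Foxi1. Dmrt2, Gata3, Oxgr1, Lyz2 and Hba-a1 are followed through further comparisons, and Aqp4 is named for its correlation with Foxi1. Intervals and p-values rest on the spread between mice within groups. They do not cover differences between founders, since each edited line descends from a single animal.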

Additional observations from a re-analysis of the deposited data

Results flagged for a closer look

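The difference between RC/- and RC/+ kidneys was tested for being equal in each edited line and the unedited kidneys, and 7 values passed at an adjusted p below 0.05 by limma-trend. On the log2 scale, in the D18 line, the difference exceeded that of the unedited kidneys by 1.941 for Slc4a1, 1.139 for Slc26a4 and 0.70 for Atp6v0a4. In the D53 line it did so by 2.218 for Slc4a1, 1.223 for Slc26a4, 0.546 for Atp6v1g3 and 0.576 for Atp6v0a4. All use the same RC/- and RC/+ libraries. Over all genes, 17.1% were called in D18 and 11.3% in D53, with 6.31% and 4.73% above. In 30 groups of 5 libraries (10 members in 3 cystic groups), 0 members had a library that stood apart by Dixon's criterion at its 95% level, which by chance alone is met in about 1 of 20 groups.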

How the results depend on the processing

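No paired analysis was run, because the labels give no litter or pairing. The paper bred the genotypes from the same pairs, so any littermates across groups were treated as unrelated. Over 10 members, 10 comparisons and 9 other settings, 860 of 900 values kept their direction and their side of the threshold, 23 passed only under the other setting, 7 no longer passed and 10 turned sign. With 1 library left out, 925 of 980 kept both, 9 were gained, 15 lost and 31 turned sign. With libraries 20 to 27 left out, 55 of 60 kept both. The number of members called within the D18 line was 1 in place of 0 with only the groups compared and by DESeq2 (Foxi1), and within the D53 line it was 1 in place of 2 with libraries 20 to 27 as a covariate, 3 with only the groups compared (Car2 added) and 1 to 2 with a library left out. With a library left out the counts were 7 to 8 in RC/- against RC/+ and in RC/- D18 against RC/-, 6 to 7 in RC/- D53 against RC/-, and 2 to 4 and 3 to 4 for the D18 and D53 interactions. The Atp6v0a4 interaction in D53 was the least firm. Its values with a library left out were 0.4808 to 0.6597, and it was lost in 12 of them, as well as with no expression limit, with sex and with libraries 20 to 27 as covariates (0.5758, 0.5629 and 0.4419). In D18 it was lost without RC/+ D18 replicate 9 (0.5813) and with libraries 20 to 27 as a covariate (0.6195). Rhcg passed in the D18 interaction without RC/+ D18 replicate 7 (-0.5754), RC/- replicate 13 (-0.5755) or RC/- replicate 14 (-0.5389). Atp6v1g3 passed in it with TMM (0.4438), DESeq2 size factors (0.4391), edgeR (0.4254) and DESeq2 (0.4227). It did so as well with libraries 20 to 27 as a covariate (0.4869) and without RC/- replicate 15 (0.4236).

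Signs turned mostly for values near 0. Atp6v1b1 in RC/- against RC/+ was -0.1187 with TMM, -0.1136 with DESeq2 size factors, -0.0950 by edgeR, -0.0911 by DESeq2 and -0.0523 to 0.1053 with a library left out. In RC/+ D53 against RC/+, Foxi1 was -0.0033 with sex as a covariate, and Slc4a9 was -0.0009 with TMM and -0.0280 with sex. With a library left out, values there were -0.1124 to 0.1302 (Foxi1), -0.2004 to 0.0490 (Slc4a1), -0.0545 to 0.0756 (Slc4a9) and -0.0228 to 0.1451 (Atp6v0a4). In RC/+ D18 against RC/+ they were -0.0236 to 0.0773 (Foxi1), -0.0320 to 0.2028 (Atp6v1b1), -0.0300 to 0.1614 (Atp6v0a4), -0.0378 to 0.0739 (Car2) and -0.0472 to 0.1133 (Rhcg). Within the D18 line they were -0.0790 to 0.0639 (Slc26a4) and -0.1344 to 0.1117 (Slc4a9), and with libraries 20 to 27 left out or as a covariate 0.0750 (Slc26a4), 0.2880 (Slc4a9) and 0.0303 (Atp6v1g3). Within the D53 line Slc4a1 was -0.2166 to 0.0774, and between the edited cystic groups Foxi1 was -0.0140 to 0.1132. The cause was not tested.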
